A study of Homo sapiens with 6 samples.

Results

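The aldehyde dehydrogenase genes described here are ALDH1A3, ALDH1B1, ALDH2, ALDH3A1, ALDH3A2, ALDH3B1, ALDH4A1, ALDH7A1, ALDH9A1 and ALDH18A1, chosen by gene name, and all 10 were found among the 21494 genes of the deposited table. They are 10 of the 19 ALDH family genes listed for this comparison, and the other 9 are taken up further on. RNA-seq libraries came from 3 samples infected with a control shRNA (Control sh, labelled WT) and 3 samples carrying an shRNA against VprBP (VprBP sh, labelled DCAF1 Knockdown), DCAF1 being the gene for VprBP. Per the methods of the study, the VprBP shRNA was a single sequence against the coding region, delivered by a pLKO.1 lentivirus, and infected G361 cells, a human melanoma line, were kept under puromycin. The labels also name G361, but their source name is LD611. No age, clone or separate culture is given for the replicates, so the spread between samples may be technical. With 1 shRNA, any other difference between the cells of the groups cannot be told apart from an effect of lower DCAF1.

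Aldehyde dehydrogenases oxidize reactive aldehydes to the matching acids with NAD or NADP as the electron acceptor. Some members make a signal, as when retinal becomes retinoic acid, others clear the products of ethanol or lipid peroxidation, and others sit inside the breakdown of proline, lysine or choline. ALDH18A1 belongs to the same protein superfamily but runs in the reductive direction, as the enzyme that starts proline synthesis from glutamate. High ALDH activity is widely used to mark stem-like and tumour-initiating cells, with ALDH1A1 and ALDH1A3 as the usual contributors.

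Because the following results turn on the members that rose or fell by more than 2-fold, 3 of which have a RefSeq promoter entry, and on ALDH1A1, the family gene with the largest rise, the bases just before their RefSeq start sites are shown (GRCh38.p14, 5′ to 3′ on the strand of the gene). Capitals mark matches, on either strand, to the GC box letters GGGCGG, the upstream element CCAAT, the start-site element TATAAA known as the TATA box, the E-box letters CACGTG or the xenobiotic response core GCGTG, and the matches shown do not overlap each other. Bases that lie in an exon of GENCODE 44 were left out, which shortened the ALDH4A1 window to 81 bases and the ALDH1A1 window to 247 bases.
ALDH4A1, chr1:18902725-18902805, minus strand: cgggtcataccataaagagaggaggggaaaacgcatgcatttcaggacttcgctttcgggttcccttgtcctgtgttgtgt
ALDH1B1, chr9:38392452-38392701, plus strand: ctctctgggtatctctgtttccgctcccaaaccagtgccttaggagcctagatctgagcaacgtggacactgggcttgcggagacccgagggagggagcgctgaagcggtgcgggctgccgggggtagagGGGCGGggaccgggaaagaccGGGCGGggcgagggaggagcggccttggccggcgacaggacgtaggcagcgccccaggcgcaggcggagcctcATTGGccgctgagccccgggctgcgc
ALDH3B1, chr11:68008297-68008546, plus strand: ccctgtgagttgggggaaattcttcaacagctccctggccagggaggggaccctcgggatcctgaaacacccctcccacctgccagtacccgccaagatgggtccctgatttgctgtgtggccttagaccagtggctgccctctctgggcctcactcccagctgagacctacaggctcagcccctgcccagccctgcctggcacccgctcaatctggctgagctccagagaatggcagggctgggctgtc
ALDH1A1, chr9:72953057-72953303, minus strand: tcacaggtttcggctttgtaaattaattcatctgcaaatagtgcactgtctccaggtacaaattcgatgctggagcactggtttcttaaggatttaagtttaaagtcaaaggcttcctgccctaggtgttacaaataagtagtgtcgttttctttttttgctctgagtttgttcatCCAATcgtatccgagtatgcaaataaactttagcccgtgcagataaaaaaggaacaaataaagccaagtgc

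Over the full 250 bases before the RefSeq start, G and C made up 55.6% of the ALDH4A1 window, 70.4% of ALDH1B1, 63.6% of ALDH3B1 and 38.4% of ALDH1A1, beside a median of 58.0% over 27305 promoters, 1 per gene. The ALDH1B1 window held 2 GC boxes and 1 CCAAT box, that of ALDH4A1 held 1 GC box (in the exon, not shown), that of ALDH1A1 held 1 CCAAT box, and that of ALDH3B1 held none of the motifs. ALDH3B1 and ALDH4A1 each have another RefSeq start, not shown, whose windows hold 2 GC boxes with 66.8% G and C for ALDH3B1 and none of the motifs with 58.4% for ALDH4A1. Of all promoters of this length, 42.31% held a GC box, 33.04% a CCAAT box, 11.13% a TATA box, 6.49% an E-box and 31.91% a xenobiotic response core. RefSeq promoter entries were matched for 8 of the 10 members. The data hold no measurement at these promoters, so the sequences are a description of the loci only.

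Total estimated counts ran from 18195949 to 26883948 per sample. Values below are normalized counts, which are the estimated counts of a sample divided by its upper quartile factor, in the order of replicates 1, 2 and 3. A gene was called when edgeR's quasi-likelihood test over all genes gave a Benjamini-Hochberg adjusted p under 0.05 and a fold change over 2, and "rose" and "fell" are kept for called genes. DCAF1 itself had 797, 971 and 838 normalized counts in Control sh and 760, 507 and 481 in VprBP sh, a log2 fold change of -0.58 (SE 0.17, adjusted p = 0.0125) that did not reach 2-fold, and VprBP sh replicate 1 lay just under the lowest Control sh sample. Replicates 2 and 3 of each group were closer to each other than to replicate 1, with a chi-square per degree of freedom of 2.50 and 2.36 against 17.6 to 29.1. With replicates 2 and 3 of each group alone, 4 of the 10 genes were called, as with all samples.

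The marker genes of the cells went against the melanoma label. Of 7 melanocyte lineage markers, 4 had a row in the table. MITF had 162, 154 and 170 counts in the Control sh samples and 238, 197 and 312 in VprBP sh, PMEL had 28 to 46, and MLANA and TYRP1 had at most 5 in any sample, so that the list summed to 184 to 210 counts in the Control sh samples and 235 to 367 in VprBP sh. Of 8 urothelial markers, listed because of the name LD611, 6 had a row, 1 rose and 3 fell, and their summed counts were 80636 to 110743 in Control sh against 21842 to 36155 in VprBP sh. Of the 5 tested, 80.0% were called, beside 46.4% of all genes tested. KRT20 and UPK3A had no row, and UPK1A had at most 5 counts in any sample. UPK2 fell from 211 to 43.6 normalized counts (-2.25 on the log2 scale). KRT5 and KRT7, epithelial keratins, carried most of that sum, UPK1B, a urothelial plaque protein, had 500, 641 and 709 counts in the Control sh samples and 0 in each VprBP sh sample, and GATA3 had 7, 1 and 0 counts in the Control sh samples and 1580, 1334 and 1873 in VprBP sh. MITF, KRT5, KRT7, UPK1B, UPK2 and GATA3 separated the groups in the same samples as the ALDH genes below. PMEL, MLANA, TYRP1 and UPK1A overlapped between groups. The part of the markers in the ALDH results was not tested. In bulk RNA, fewer cells of a kind and less RNA per cell cannot be told apart.

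Across all genes, 7778 of 16756 tested were called (46.4%), 4097 of them higher in VprBP sh (24.5%) and 3681 lower (22%). At an adjusted p under 0.05 with any fold, 12800 genes passed (76.4%), and the 3 values of a group did not overlap those of the other in 13324 genes (79.5%). All 10 members passed the filter on low counts. Of these, 4 were called, with 2 higher (ALDH4A1 and ALDH3A1) and 2 lower (ALDH1B1 and ALDH3B1), 8 had an adjusted p under 0.05, and 8 did not overlap between groups. The shares of 40.0% called among the members and 46.4% among all genes lie near each other, so the count by itself is no result about the family. The median log2 fold change was 0.18 over the members and 0.08 over all genes, and the median absolute change was 0.75 and 0.92. An exact two-sided permutation test on the samples, 3 against 3, gave p = 0.1 for each of the 8 members without overlap, which is the smallest p that the design allows.

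**Figure D1:**
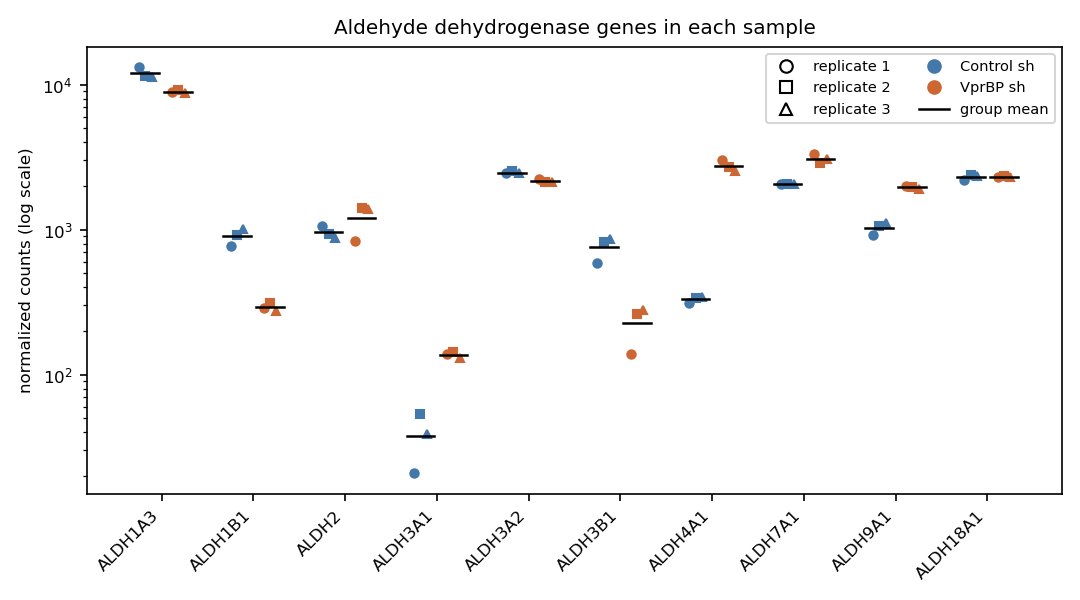
Normalized counts of the 10 aldehyde dehydrogenase genes in each sample, on a log axis, with Control sh in blue, VprBP sh in orange, marker shape for the replicate and a bar for the group mean. The 2 groups lie apart for 8 genes and overlap for ALDH2 and ALDH18A1, and the widest gap is that of ALDH4A1, from 332 to 2767 on average.

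ALDH1A3 oxidizes retinal to retinoic acid in the cytosol (ENSG00000184254.17, chr15:100877714-100916626, plus strand, hg38). It had 13172, 11526 and 11376 normalized counts in Control sh and 8894, 9152 and 8760 in VprBP sh. All 3 VprBP sh samples were below all Control sh samples, and the log2 fold change of -0.43 (SE 0.08, adjusted p = 0.00109, 95% interval -0.62 to -0.24) stayed under 2-fold. An antisense gene, ALDH1A3-AS1, had 225, 160 and 159 counts in the Control sh samples and 186, 223 and 332 in VprBP sh. The deposited counting is not stated to use strand, so reads of the pair cannot be told apart. ALDH1A3 itself had 7966 to 11999 counts per sample.

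ALDH1B1 and ALDH2 are mitochondrial enzymes for acetaldehyde and other small aldehydes. ALDH1B1 (ENSG00000137124.8, chr9:38392702-38398661, plus strand), a gene of 2 exons, had 768, 922 and 1003 normalized counts in Control sh and 286, 313 and 273 in VprBP sh. Every VprBP sh sample was below every Control sh sample, and ALDH1B1 fell by 1.63 on the log2 scale (SE 0.13, adjusted p = 2.10e-06), which is 3.09-fold. ALDH2 (ENSG00000111275.13, chr12:111766887-111817532, plus strand) is the main acetaldehyde oxidase of ethanol metabolism. It had 1059, 936 and 878 normalized counts in Control sh and 832, 1419 and 1382 in VprBP sh. Replicate 1 of VprBP sh lay below all Control sh samples while replicates 2 and 3 lay above them, and the log2 fold change was 0.34 (SE 0.19, adjusted p = 0.121, 95% interval -0.08 to 0.76). Without VprBP sh replicate 1 the log2 fold change was 0.55 (adjusted p = 0.000879), and over all alternatives it ran from 0.21 to 0.63 with adjusted p from 2.28e-08 to 0.3721, under 2-fold in each. A protein-coding gene named only by its identifier overlaps ALDH2 on the same strand, and reads in the overlap could be counted for either.

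Among the ALDH3 genes of the 10, whose products act on longer and aromatic aldehydes, 1 rose, 1 fell and 1 was near its control level. ALDH3A1 (ENSG00000108602.18, chr17:19737984-19748943, minus strand) is a cytosolic enzyme for aromatic and lipid peroxidation aldehydes and a classic target of the aryl hydrocarbon receptor. It was the lowest of the 10 genes in Control sh, at 18, 49 and 41 counts against 124, 138 and 169 in VprBP sh. In normalized counts these are 20.9, 53.3 and 38.9 against 138, 143 and 130. All VprBP sh samples were above all Control sh samples, although Control sh spread 2.55-fold between its lowest and highest sample, and ALDH3A1 rose by 1.85 on the log2 scale (SE 0.29, adjusted p = 0.000230, 95% interval 1.21 to 2.50).

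ALDH3B1 (ENSG00000006534.17, chr11:68008578-68029282, plus strand), a membrane-bound enzyme for lipid-derived aldehydes, had 589, 822 and 867 normalized counts in Control sh and 140, 261 and 278 in VprBP sh. Replicate 1 was the lowest sample in both groups and the groups did not overlap. ALDH3B1 fell by 1.74 on the log2 scale (SE 0.25, adjusted p = 0.000122). ALDH3A2 (ENSG00000072210.19, chr17:19648136-19685760, plus strand), the fatty aldehyde dehydrogenase of the endoplasmic reticulum whose loss causes Sjogren-Larsson syndrome, had 2451, 2527 and 2442 normalized counts in Control sh and 2225, 2144 and 2118 in VprBP sh. The groups did not overlap, but the log2 fold change was small at -0.19 (SE 0.07, adjusted p = 0.0325), and it turned to 0.02 (adjusted p = 0.833) when samples were scaled by library size alone. Its adjusted p was also above 0.05 with a replicate block (0.06997) and without Control sh replicate 2 (0.1109) or 3 (0.07264) or VprBP sh replicate 2 (0.09834) or 3 (0.1209), and it ran from 9.559e-05 to 0.833 over all alternatives.

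ALDH4A1 showed the largest difference of the 10 genes. It encodes the mitochondrial enzyme that turns pyrroline-5-carboxylate into glutamate, the last step of proline breakdown (ENSG00000159423.17, chr1:18871430-18902724, minus strand, 15 exons). It had 313, 339 and 344 normalized counts in Control sh and 3028, 2719 and 2553 in VprBP sh. The lowest VprBP sh sample was well above the highest Control sh sample, and ALDH4A1 rose by 3.06 on the log2 scale (SE 0.10, adjusted p = 7.92e-09, 95% interval 2.83 to 3.28), which is 8.32-fold. By p-value it ranked 308 among the 16756 genes tested.

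ALDH18A1 (ENSG00000059573.9, chr10:95605941-95656711, minus strand) works in the opposite direction, making pyrroline-5-carboxylate from glutamate for proline synthesis. It had 2201, 2374 and 2326 normalized counts in Control sh and 2309, 2340 and 2302 in VprBP sh. The groups overlapped, the log2 fold change was 0.01 (SE 0.07, adjusted p = 0.903), and its 95% interval from -0.15 to 0.18 leaves out changes of 2-fold in either direction. The sign of this value depended on the scaling, with -0.09 under TMM factors and 0.22 under library size alone.

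ALDH7A1 and ALDH9A1, the enzymes of lysine breakdown and of aminoaldehydes, were both higher in VprBP sh by less than 2-fold. ALDH7A1 (ENSG00000164904.18, chr5:126531200-126595362, minus strand) oxidizes the aminoadipic semialdehyde formed from lysine. It had 2068, 2051 and 2053 normalized counts in Control sh and 3300, 2870 and 3089 in VprBP sh. The log2 fold change was 0.59 (SE 0.08, adjusted p = 9.85e-05). Its pseudogene ALDH7A1P1 had 2 to 7 counts in the Control sh samples and 14 to 20 in VprBP sh, against at least 1784 counts of ALDH7A1 in any sample, and how reads of the copies were split is not given in the sources used here. ALDH9A1 (ENSG00000143149.13, chr1:165662216-165698562, minus strand) oxidizes trimethylaminobutyraldehyde on the way to carnitine, as well as other aminoaldehydes. It had 917, 1064 and 1115 normalized counts in Control sh and 2001, 1980 and 1896 in VprBP sh. The groups were well apart, and the log2 fold change of 0.92 (SE 0.09, adjusted p = 1.34e-05, 95% interval 0.71 to 1.14) lay just under 2-fold. With library size alone it was 1.14 and passed the 2-fold limit, a scaling that moved the median of all genes from 0.08 to 0.29.

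Levels of different genes were compared per kilobase of exon. ALDH1A3 was the most abundant of the 10 in both groups, with 55.1% ± 3.56 (SD, n = 3) of their summed level per kilobase in Control sh and 38.9% ± 0.468 in VprBP sh. Next in Control sh came ALDH18A1 (14.98%), ALDH9A1 (8.41%) and ALDH1B1 (7.06%), and ALDH9A1 and ALDH1B1 overlapped in level. ALDH4A1 had 2.24% ± 0.151 in Control sh, where its level overlapped that of ALDH2, and came next after ALDH1A3 with 17.7% ± 1.32 in VprBP sh, where its level exceeded that of ALDH9A1 (15.1%) and ALDH18A1 (14.3%) in every sample. ALDH1B1 went from 7.06% ± 1.05 to 2.16% ± 0.116, and ALDH3A1 had at most 0.847% in any sample.

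The summed level of the 10 genes was 4088 ± 72.0 (SD, n = 3) normalized counts per kilobase in Control sh and 4305 ± 88.9 in VprBP sh (exact two-sided permutation p = 0.1). With the longest transcript as the length in place of all exons, ALDH1A3 had 56.3% and 40.5% of the sum and ALDH4A1 had 1.72% and 13.8%, and the sums of the groups overlapped. The order after ALDH18A1 in Control sh depends on this choice, since ALDH3A2, ALDH7A1, ALDH9A1 and then ALDH1B1 followed it with the longest transcript, and ALDH4A1 came just above ALDH2. In VprBP sh the levels of ALDH4A1 and ALDH9A1 then overlapped, and ALDH3A1 had up to 1.04%. The lengths differ most for ALDH3A2 and ALDH7A1, where all exons span 15331 and 17914 bases and their longest transcripts 5084 and 4765.

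**Figure D2:**
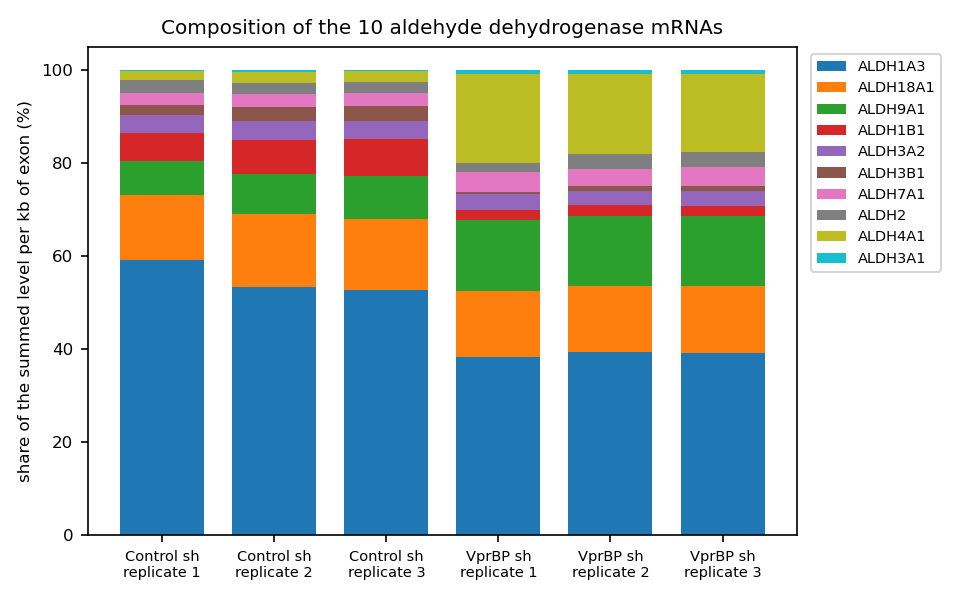
Share of each gene in the summed level per kilobase of exon of the 10 genes, in percent, with 1 stacked bar per sample. ALDH1A3 takes 52.7% to 59.2% of the bar in Control sh against 38.4% to 39.3% in VprBP sh, and ALDH4A1 goes from 2.07% to 2.34% up to 16.7% to 19.2%.

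Among the other 9 family genes, 8 could be tested and all 8 were called, 5 higher and 3 lower, and the median of their log2 fold changes was 2.12. The count of 8 of 8 stands beside 46.4% of all genes. ALDH1A1, the cytosolic retinal dehydrogenase, had 8, 7 and 10 counts in the Control sh samples and 4827, 4614 and 6243 in VprBP sh, and rose by 9.13 on the log2 scale (SE 0.14, adjusted p = 2.47e-10). ALDH3B2, the close relative of ALDH3B1, rose from 225 ± 14.4 to 15907 ± 3239 normalized counts (log2 fold change 6.14, SE 0.18). ALDH3B1 and ALDH3B2 thus differed in direction, and how reads shared by these similar genes were assigned was not tested.

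The remaining rises were in enzymes of the mitochondrion and in ALDH16A1. ALDH5A1, which oxidizes succinic semialdehyde from GABA, rose from 396 to 2667 normalized counts (2.75 on the log2 scale), ALDH6A1, of valine and thymine breakdown, from 302 to 1038 (1.78), and ALDH16A1 from 447 to 2465 (2.46). The family genes that fell were ALDH1A2, another retinal dehydrogenase, from 83.1 to 18.5 (-2.16), and the folate enzymes ALDH1L2, from 150 to 48.5 (-1.61), and ALDH1L1, from 55, 47 and 63 counts to 0, 1 and 1, which is at least 19.9-fold lower against a floor of 3 counts per library. ALDH8A1 had 3 to 18 counts per sample and was not tested.

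With the whole family as the total, ALDH1A3 held 51.4% ± 3.58 of the summed level per kilobase in Control sh and 14.6% ± 1.02 in VprBP sh. ALDH3B2 went from 1.42% to 38.0% and ALDH1A1 from 0.0706% to 15.3%, which placed both above ALDH1A3 on average in VprBP sh. The summed level of the family was 4380 ± 56.1 in Control sh and 11528 ± 807 in VprBP sh (exact two-sided permutation p = 0.1, the smallest possible). The larger total came from genes outside the 10, since the 10 genes alone summed to 4088 and 4305.

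**Figure D3:**
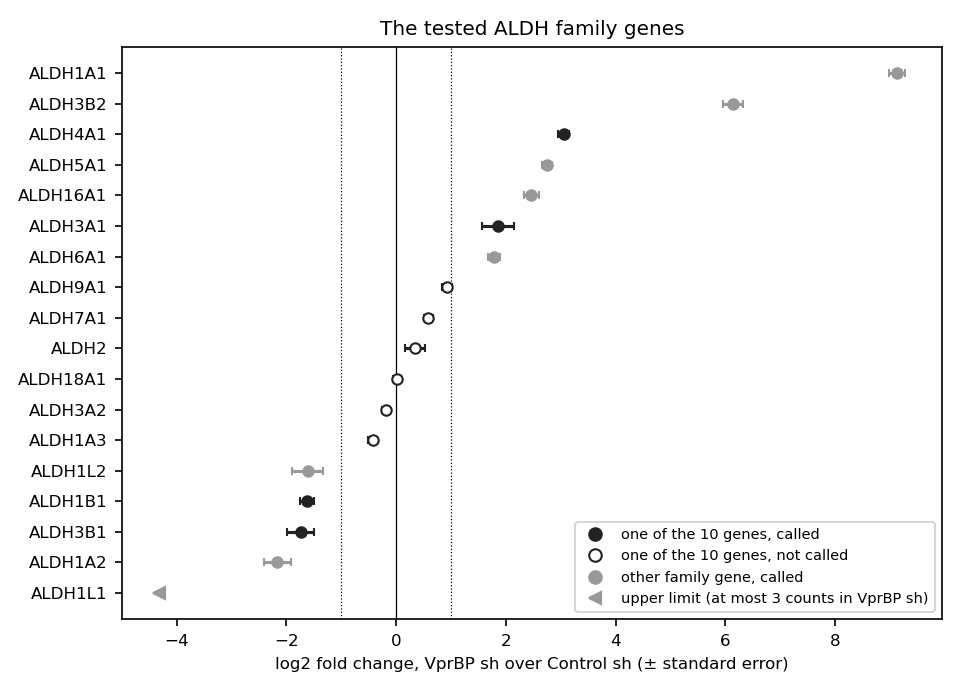
Log2 fold change of VprBP sh over Control sh for the 18 tested ALDH family genes, with standard errors and dotted lines at 2-fold. The 10 genes described here are black and the other family genes grey, open circles were not called, and ALDH1L1 is drawn at its limit. The range runs from ALDH1L1 at the bottom to ALDH1A1 at 9.13.

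ALDH1A3, ALDH1A1 and ALDH1A2 act between the retinol dehydrogenases that supply retinal and the receptors and CYP26 enzymes that use and clear retinoic acid. Of 18 genes reported for this pathway, 15 were in the table and tested, 3 rose and 6 fell, and the median of their log2 fold changes was 0.00069. The share called was 60.0%, beside 46.4% of all genes tested. DHRS9, a retinol dehydrogenase, fell from 73.0 to 23.1 normalized counts (-1.63 on the log2 scale, adjusted p = 0.00110). RDH10, which makes retinal for the ALDH1A enzymes, fell from 1730 to 627 normalized counts (-1.46 on the log2 scale, adjusted p = 0.000638), and DHRS3, which reduces retinal back to retinol, from 3137 to 1496 (-1.07). The uptake receptor STRA6 rose from 200 to 553 (1.47), and LRAT, which esterifies retinol, went from 0 counts in all Control sh samples to 75, 106 and 148, at least 32.1-fold higher.

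On the side of retinoic acid itself, the receptors moved in different directions. RARB, a receptor gene that retinoic acid is known to induce, had 0 counts in the Control sh samples and 39, 44 and 58 in VprBP sh, at least 13.95-fold higher. RARG fell from 3232 to 1376 (-1.23) and RXRA from 6522 to 3211 (-1.02), while RARA overlapped between groups at 856 to 1030 and 720 to 1779. CYP26A1, which degrades retinoic acid and is also known as a retinoic acid target, had 28, 26 and 28 counts in the Control sh samples and 1, 1 and 0 in VprBP sh, at least 9.95-fold lower. CRABP2, the binding protein that carries retinoic acid to its receptors, had 4672 and 9177 normalized counts (0.97, adjusted p = 1.55e-05), under 2-fold.

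ALDH4A1 and ALDH18A1 act in opposite directions between pyrroline-5-carboxylate and glutamate in proline turnover. PRODH, which makes the substrate of ALDH4A1 from proline, rose beside ALDH4A1. Of the 5 other genes reported for proline and glutamate, all were tested, 2 rose and 0 fell, and the median of their log2 fold changes was 0.19. Called genes made up 40.0% of these, near the 46.4% of all genes tested. PRODH had 46.4, 56.5 and 48.4 normalized counts in Control sh and 5574, 6339 and 6236 in VprBP sh, and rose by 6.90 on the log2 scale (SE 0.12, adjusted p = 3.77e-10). PRODH has an unprocessed pseudogene copy, PRODHLP, and how shared reads were assigned is not given in the sources used here. The genes of both steps from proline to glutamate were therefore higher in every VprBP sh sample. PYCR1, a mitochondrial enzyme that makes proline, rose from 610, 336 and 331 to 1943, 2015 and 2002 (2.23, SE 0.21, adjusted p = 8.20e-06). PYCR3, which makes proline in the cytosol, gave 0.19 (adjusted p = 0.198). OAT (-0.44) and GLUD1 (-0.35), which join proline to ornithine and the citric acid cycle, were lower by less than 2-fold without overlap between groups.

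**Figure D4:**
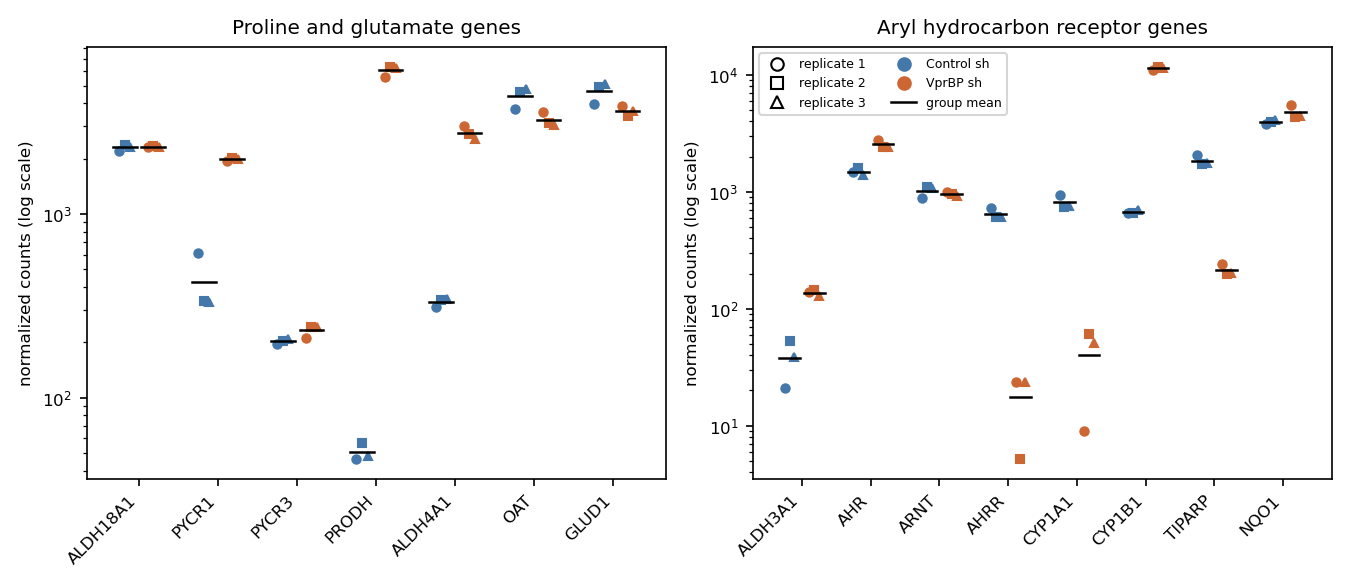
Normalized counts per sample on log axes, with Control sh in blue, VprBP sh in orange, marker shape for the replicate and a bar for the group mean. The left panel holds the proline and glutamate genes, where PRODH goes from 50.4 to 6050 and ALDH4A1 from 332 to 2767 on average while ALDH18A1 overlaps, and the right panel holds ALDH3A1 and the aryl hydrocarbon receptor genes, where AHRR, CYP1A1 and TIPARP are lower and ALDH3A1 and CYP1B1 higher in VprBP sh.

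ALDH3A1 was set beside other genes of the aryl hydrocarbon receptor, which binds planar aromatic ligands and induces detoxification genes with ARNT as its partner. Of the 7 genes listed, all were tested, 1 rose and 3 fell, and the median of their log2 fold changes was -0.08. That makes 57.1% called, beside 46.4% of all genes tested. The targets did not move together. CYP1B1 rose from 671 to 11398 normalized counts (4.09, SE 0.09), in the direction of ALDH3A1, with an antisense gene at its locus whose reads are not told apart without strand, while CYP1A1 fell from 813 to 40.5 (-4.28, SE 0.38), the repressor AHRR from 650 to 17.5 (-5.17, SE 0.31) and TIPARP, a feedback inhibitor, from 1851 to 214 (-3.11, SE 0.12). AHR itself gave 0.77 and NQO1 0.27, neither past 2-fold, and ARNT gave -0.08 (adjusted p = 0.485).

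Around ALDH7A1 and ALDH9A1, 10 genes of lysine, choline and carnitine metabolism were listed and 9 tested, of which 6 rose and 2 fell, and the median of their log2 fold changes was 1.89. Their share called, 88.9%, stands beside 46.4% of all genes tested. AASS, the enzyme that begins the lysine route ahead of ALDH7A1, fell from 359, 490 and 508 normalized counts to 7.82, 2.08 and 3.07 (-6.74, SE 0.32, adjusted p = 6.71e-08). Of the enzymes after ALDH7A1, AADAT rose by 2.00 and GCDH by 1.89 on the log2 scale, and DHTKD1 gave 0.08 (adjusted p = 0.453). In the carnitine route, TMLHE, ahead of ALDH9A1, rose by 1.60, and BBOX1, which follows it, had 0, 0 and 1 counts in the Control sh samples and 22, 34 and 46 in VprBP sh, at least 9.93-fold higher. CHDH, which makes betaine aldehyde from choline, rose by 3.74, DMGDH had 0, 3 and 4 counts in the Control sh samples and 51, 44 and 65 in VprBP sh, and SARDH had 13, 16 and 24 counts in the Control sh samples and 0 in each VprBP sh sample, at least 6.30-fold lower.

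Aldehydes also arise from alcohols and are removed by reduction, through the alcohol dehydrogenases and aldo-keto and carbonyl reductases. Of 15 such genes listed, 10 were in the table and tested, 4 rose and 1 fell, and the median of their log2 fold changes was 0.50. Called genes were thus 5 of these 10, a share near the 46.4% of all genes tested. The count by itself is therefore no result about these genes. ADH1C, an alcohol dehydrogenase, had 0 counts in the Control sh samples and 36, 164 and 282 in VprBP sh, at least 44.5-fold higher, with VprBP sh replicate 1 well below the others. AKR1B10 rose from 759 to 2575 normalized counts (1.76), AKR1C2 from 1227 to 3180 (1.37) and CBR3 from 107 to 218 (1.03). AKR1B1, the aldose reductase, fell from 5909 to 2146 (-1.46), and ADH5, which with glutathione removes formaldehyde, gave 0.76, under 2-fold. AKR1C1, AKR1C2 and AKR1C3 are near-identical copies among which the counting could split reads, and ADH1C has such copies in ADH1A and ADH1B. Unlike AKR1C2, AKR1C3 was lower in VprBP sh without overlap but under 2-fold (-0.77, adjusted p = 0.000139). AKR1C1 overlapped between groups (-0.28, adjusted p = 0.235). Medians of the gene lists above were the same when genes at or under 3 counts in a group were set to their limits.

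The nearest protein-coding genes on each side that do not overlap the 10 members were read out to describe the loci. Of 19 such neighbours, all tested, 6 were called, and 8 had the sign of the ALDH gene they were read out for. Over all genes tested, 46.4% were called, so the count of called neighbours by itself is no result about the loci. One of the called neighbours is itself a member, ALDH3A1, which lies 52.2 kb from ALDH3A2. Where the ALDH gene and a neighbour were both called, in 3 pairs, the direction was shared in 1. That pair was ALDH4A1 and PAX7, a muscle stem cell transcription factor 122.6 kb away, which had 0 counts in the Control sh samples and 1204, 1298 and 1824 in VprBP sh, at least 427-fold higher. On the other side of ALDH4A1, IFFO2 at 1.56 kb had a log2 fold change of 0.05 (adjusted p = 0.599).

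In the chromosome 17 cluster, SLC47A2, a drug transporter gene that overlaps ALDH3A2 and was counted as a neighbour of ALDH3A1 at 19.0 kb, fell from 1554 to 4.06 normalized counts (-8.63, SE 0.28). ALDH3A1 rose and ALDH3A2 was within 2-fold around it. The overlap of SLC47A2 and ALDH3A2 means that reads there could be counted for either gene. Beside ALDH3B1, UNC93B1 gave 0.03 and NDUFS8 0.57, and beside ALDH1B1, IGFBPL1 rose by 2.58 while SHB gave -0.28. LRRK1, 2.70 kb from ALDH1A3, rose by 3.16, and GRAMD2B beside ALDH7A1 by 1.14.

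**Figure D5:**
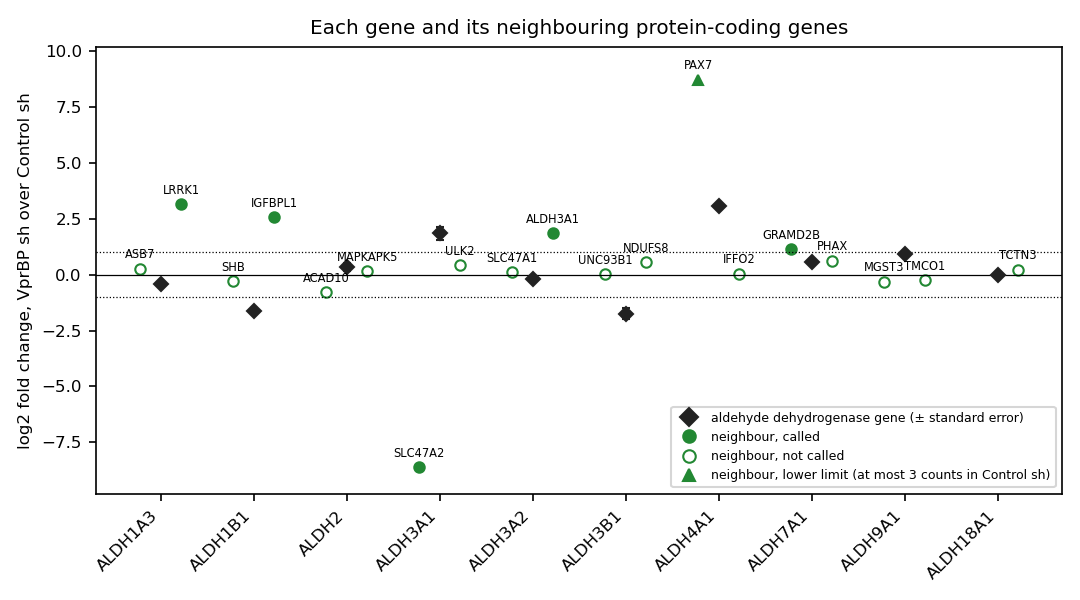
Log2 fold change of VprBP sh over Control sh for each aldehyde dehydrogenase gene (black diamonds, with standard errors) and for the 19 nearest protein-coding genes that do not overlap them (green, ALDH3A1 included as the neighbour of ALDH3A2), with dotted lines at 2-fold. PAX7 is drawn at its lower limit. Of the 19 neighbours, 6 were called, beside 46.4% of all genes tested, and the called ones lie from SLC47A2 at -8.63 to PAX7.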

How the data were processed

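Libraries made from total RNA of 3 Control sh and 3 VprBP sh samples were sequenced as single-end reads. Per the methods, a strand-specific KAPA kit that captures mRNA on beads was used, whereas the labels name a SMARTER kit. The authors aligned reads to hg38 (GENCODE annotation) with STAR, quantified genes in Partek Flow and deposited estimated counts, 59.4% of them whole numbers, neither normalized nor pooled. Whether strand was used in counting is not given in the sources used here.

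Estimated counts were rounded and tested with edgeR 4.0.16 in R 4.3.3 (upper quartile factors at 0.75, filterByExpr with a minimum of 10, all 6 samples, no replicate block), in place of the study's Gene Specific Algorithm, which was not used here. Benjamini-Hochberg adjustment ran over all 16756 genes tested. Standard errors were taken as the size of the log2 change over the root of the F statistic. A group at or under 3 counts per library (2.30 to 3.48 normalized counts, counting error only) gave limits. Levels per kilobase used GENCODE 44 exons. The last base of each gene is the deposited stop less 1. Lists, neighbours and figures were made with Python 3.11.15, pandas 2.3.3 and matplotlib 3.10.9. The edgeR script was tested on simulated data with a small part of the genes changed, balanced in direction. That test does not cover scaling under changes as widespread as those found here.

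The members and lists were chosen with earlier results of these data known. The text names all members, the counts of each list with its called genes of largest change (at most 4 each way) or at the step beside a called ALDH gene, and the nearest protein-coding gene on each side that does not overlap. Some genes of the lists and neighbours are not reported here and were left out of their counts, medians and figures. Genes outside this rule, such as DHRS3, RXRA, GCDH, TMLHE, CRABP2, RARA, ADH5, ARNT, AHR, NQO1 and DHTKD1, were named after their values were seen. The same holds for CYP26B1, AKR1C1 and AKR1C3. Alternatives were TMM factors, library size alone, DESeq2 1.42.0, limma-voom 3.58.1, other filters, unrounded counts, a replicate block and leaving out each replicate. The fit of replicates 2 and 3 alone and the whole family as the total were added after seeing the data.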

Additional observations from a re-analysis of the deposited data

How the results depend on the processing

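For the 10 members, 142 of 150 alternative values kept the direction and the side of the call, 0 calls were lost, 1 was gained (ALDH9A1 at 1.14 with library size alone, making 5 members called) and 7 reversed. The reversed values were ALDH3A2 at 0.018 with library size alone, and ALDH18A1, 0.01 in the report, at -0.087 with TMM factors, -0.11 with DESeq2, -0.0111 with no filter, and -0.0175 with replicates 2 and 3 of each group alone. Leaving out 1 replicate moved ALDH18A1 between -0.0231 and 0.0277 (-0.0231 without Control sh replicate 1 and -0.0016 without VprBP sh replicate 2). When each sample had to hold at least 10 counts, 4690 genes were called, 2694 higher and 1996 lower, where fewer genes were tested. With no filter 9575 were called. The median over all genes, 0.08 on the log2 scale, was 0.29 with library size alone and -0.04 with DESeq2. The difference in the share of ALDH1A3, -16.19 percentage points, was -36.85 with the whole ALDH family as the total, whose construction adds 9 genes, and -17.37 to -14.14 when 1 replicate was left out. Same-numbered replicates did not deviate together (correlations of -0.07, 0.02 and -0.06). With so few samples per group this cannot settle whether same-numbered samples were prepared together. A replicate block gave 7686 genes called and 4 members called. ALDH3A1 rested on 18 to 49 counts in Control sh.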
